A study of Mus musculus with 18 samples.

Results

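The genes described here are 10 receptors, signalling proteins and transcription factors of the osteoclast lineage, taken by gene symbol from the 38243 genes counted in each library: the receptors *Csf1r*, *Tnfrsf11a* and *Il1r1*, the signalling proteins *Tyrobp*, *Src* and *Traf6*, and the transcription factors *Spi1*, *Mitf*, *Fos* and *Nfatc1*. Their RNA was measured in 18 libraries from the mandibles of 6 female C57BL/6 embryos at embryonic day 16.5 (E16.5). Of these, 3 embryos were heterozygous for the Apert syndrome mutation S252W of the fibroblast growth factor receptor gene *Fgfr2* (*Fgfr2+/S252W*), and 3 were *Fgfr2+/+* littermates that carried no mutation. From each embryo, mandibular bone, Meckel's cartilage (MC) and mandibular condylar cartilage were cut out of frozen sections by laser capture, which gave 3 libraries per genotype and tissue. No other allele, treatment or sort was used, and the counts per gene did not separate the mutant from the normal *Fgfr2* allele. A captured area held every cell type within it, so fewer cells of a lineage and less RNA per cell cannot be told apart in these values.

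Osteoclasts are the bone-resorbing cells that form by fusion of precursors of the monocyte lineage. The growth factor CSF1 keeps those precursors alive through its receptor CSF1R, and RANKL, made by osteoblast-lineage cells, drives them to become osteoclasts through RANK, the product of *Tnfrsf11a*. RANK signals through TRAF6 to AP-1 factors such as FOS and then to NFATc1, which switches on the genes of resorption, and this needs a parallel signal from receptors that carry an immunoreceptor tyrosine-based activation motif (ITAM) adaptor such as TYROBP. PU.1, the product of *Spi1*, and MITF act in the precursors and in differentiating cells, SRC is a kinase needed for the ruffled border of the resorbing cell, and IL1R1 is the receptor through which interleukin-1 stimulates osteoclasts. In bone CSF1R and PU.1 are shared with macrophages, whereas TRAF6, SRC, FOS, MITF and NFATc1 are made in many cell types.

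RefSeq windows of the 250 bases before the transcription start (GRCm38.p6) were at hand for 6 of the 10 members, with 9 windows among them, namely *Tnfrsf11a*, *Il1r1*, *Src*, *Traf6*, *Mitf* and *Fos*. The windows were searched on both strands for the core letters bound by 3 of the factors of the lineage: GAGGAAG for PU.1, TGGAAA for NFAT and TGANTCA for AP-1. The PU.1 core was in 10.6% of all 32851 windows of this length, the NFAT core in 18.6% and the AP-1 letters in 6.75%, and any of them in 32.3%. The windows printed here are 3, for both receptors with a window and for the member with the most matches, 5′ to 3′ on the plus strand with each match in capitals. The *Tnfrsf11a* window (chr1:105780473-105780722) and the first *Il1r1* window (chr1:40224830-40225079) held none of the 3 motifs, and the *Traf6* window (chr2:101678170-101678419) held the PU.1 core at 161 and at 106 bases before the start.
Tnfrsf11a: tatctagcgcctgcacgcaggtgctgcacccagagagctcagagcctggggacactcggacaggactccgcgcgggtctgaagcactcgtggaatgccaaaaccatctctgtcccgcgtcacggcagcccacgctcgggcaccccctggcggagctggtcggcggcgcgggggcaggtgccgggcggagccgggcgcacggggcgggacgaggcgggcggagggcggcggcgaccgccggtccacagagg
Il1r1: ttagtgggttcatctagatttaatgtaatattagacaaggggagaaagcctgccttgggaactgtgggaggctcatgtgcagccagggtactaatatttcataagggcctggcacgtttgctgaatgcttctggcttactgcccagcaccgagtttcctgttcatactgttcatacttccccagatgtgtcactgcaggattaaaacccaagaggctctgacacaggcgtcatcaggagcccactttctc
Traf6: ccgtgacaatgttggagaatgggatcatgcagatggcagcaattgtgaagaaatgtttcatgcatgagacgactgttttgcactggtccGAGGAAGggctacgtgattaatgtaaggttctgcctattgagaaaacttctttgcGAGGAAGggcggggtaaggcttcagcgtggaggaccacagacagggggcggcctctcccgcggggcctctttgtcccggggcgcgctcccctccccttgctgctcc
Of the other 6 windows, that of *Src* held 1 PU.1 core, 109 bases before the start, and 1 of the 3 *Mitf* windows held 1 NFAT core, 47 bases before the start. No 2 matches overlapped. These matches describe letters only.

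In the GRCm38 annotation used for counting, *Tnfrsf11a* (ENSMUSG00000026321) lay at chr1:105780723-105847981, *Il1r1* (ENSMUSG00000026072) at chr1:40225080-40316198 and *Csf1r* (ENSMUSG00000024621) at chr18:61105572-61132149, all on the plus strand. *Tyrobp* (ENSMUSG00000030579) lay at chr7:30413788-30417577, *Src* (ENSMUSG00000027646) at chr2:157418444-157471862 and *Traf6* (ENSMUSG00000027164) at chr2:101678440-101701669, also on the plus strand. Of the transcription factors, *Spi1* (ENSMUSG00000002111) lay at chr2:91082390-91115756, *Mitf* (ENSMUSG00000035158) at chr6:97807058-98021349 and *Fos* (ENSMUSG00000021250) at chr12:85473890-85477273 on the plus strand, and *Nfatc1* (ENSMUSG00000033016) at chr18:80606205-80713071 on the minus strand. *Csf1r* shared 871 of its 4885 exonic bases with *Hmgxb3*, which lies on the other strand. Strand was not used in counting and a fragment in both genes was not counted, so part of *Csf1r* went unmeasured in every library. *Hmgxb3* itself ranged from 10.9 to 21.6 normalized counts in bone and from 13.6 to 37.5 in MC. The other 9 members shared no exonic base with another gene.

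The libraries held 8218548 to 15585778 fragments assigned to genes, with a median of 10581032. A normalized count is given below on the CPM scale, with library sizes corrected for composition (TMM), and levels of different genes are compared as FPKM, which is the same value divided by exonic length in kilobases. The correction was large in MC, where the transcript *Gm42418* alone took 24.1% to 39.4% of fragments against 5.58% to 9.33% in bone. The median standard deviation of a gene on the log2 scale within a group was 0.218 in bone, 0.318 in condylar cartilage and 0.480 in MC. MC thus had the widest error for a typical gene. For *Csf1r*, *Tnfrsf11a*, *Tyrobp*, *Spi1* and, by little, *Src*, however, the SE of the genotype difference was larger in condylar cartilage than in MC. Mitochondrial genes took 36.0%, 34.8% and 20.4% of fragments in the 3 *Fgfr2+/+* bone libraries and 23.4% to 23.6% in the *Fgfr2+/S252W* bone libraries. The tissue labels were checked by marker sums in normalized counts. The 10 osteoblast genes summed to 17248 to 35146 in bone, 1615 to 4035 in MC and 5076 to 19883 in condylar cartilage, and the 9 chondrocyte genes to 91.6 to 391 in bone, 369 to 8784 in MC and 32914 to 42941 in condylar cartilage. Every MC library lay far below every condylar library in chondrocyte genes, so these sums gave only weak backing for the MC label. The MC library at 8784 was *Fgfr2+/S252W* replicate 1, and the others stood at 3133 or less. The MC library at 369, *Fgfr2+/+* replicate 1, was no higher in chondrocyte genes than the *Fgfr2+/S252W* bone libraries, at 291 to 391. In bone the chondrocyte sums did not overlap between genotypes, at 91.6 to 242 in *Fgfr2+/+* libraries, as with the receptors described below, and their part in those results was not tested. Without *Fgfr2+/+* MC replicate 1 no member passed between genotypes in MC, and without its embryo 8 members passed between bone and MC. These numbers were the same as with it, but 6 members instead of 5 passed between the cartilages. The differences of *Spi1* between genotypes in MC and of *Mitf* between bone and MC moved, as given below. Between genotypes in MC, *Il1r1* also went from 0.65 to -0.13 and *Mitf* from 0.10 to 0.88 without that library.

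Averaged over both genotypes, bone held the highest level of 9 of the 10 members, and the 4 that are closest to the monocyte lineage were lowest in condylar cartilage, where *Csf1r* still averaged 0.947 FPKM. In *Fgfr2+/+* libraries alone *Nfatc1* was as high in MC as in bone, at means of 84.8 and 84.0 normalized counts. Per length, *Tyrobp* was the most abundant member in bone at 72.7 ± 11.5 FPKM (mean ± SD, n = 6), followed by *Csf1r* at 18.03 ± 6.72 and *Nfatc1* at 14.4 ± 3.84, and the last 2 did not differ beyond their spread. *Tnfrsf11a* at 9.06 ± 3.19, *Spi1* at 7.63 ± 1.59 and *Traf6* at 7.10 ± 1.00 FPKM formed the middle of the order in bone, also with overlapping libraries. *Il1r1* at 3.44 ± 1.04, *Fos* at 2.84 ± 1.13, *Src* at 1.94 ± 0.486 and *Mitf* at 1.31 ± 0.298 FPKM were the lowest. In MC *Tyrobp* led at 19.3 ± 10.2 FPKM, ahead of *Nfatc1* at 10.7 ± 1.43, *Csf1r* at 4.41 ± 2.08 and *Traf6* at 4.37 ± 0.707. In condylar cartilage the order was another one: *Nfatc1* at 10.3 ± 2.34 and *Traf6* at 4.27 ± 0.456 FPKM led, *Fos* at 1.61 ± 1.56 and *Src* at 1.29 ± 0.271 followed, and the other 6 members averaged under 1 FPKM.

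**Figure D1:**
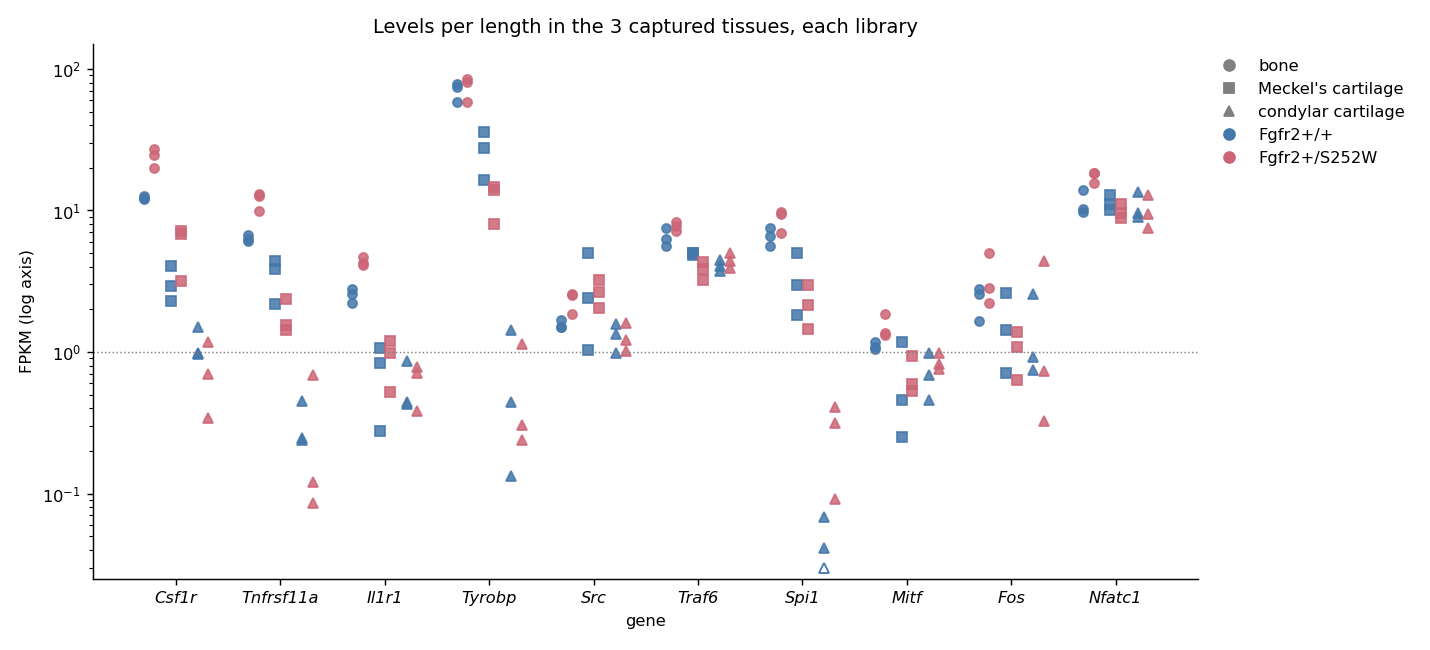
FPKM (log axis) of the 10 members in each of the 18 libraries, by tissue and genotype. The dotted line marks 1 FPKM and the open triangle at the lower edge the 1 condylar library with no Spi1 fragment. Csf1r, Tnfrsf11a, Tyrobp and Spi1 step down from bone to MC to condylar cartilage, while Traf6 and Nfatc1 stay within a narrow range.

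Tissues were compared within embryos with limma on log2 normalized counts, averaged over both genotypes, with Benjamini-Hochberg adjustment over all genes tested. Between bone and MC 8 of the 10 members passed an adjusted p of 0.05, all 8 higher in bone, where 49.5% of all genes tested passed and 24.9% were higher in bone. The largest bone excesses over MC were those of *Il1r1*, by 2.26 on the log2 scale (SE 0.33, adjusted p = 3.24e-05), *Csf1r*, by 2.05 (SE 0.21, adjusted p = 6.07e-07), *Tyrobp*, by 2.00 (SE 0.22, adjusted p = 1.25e-06), and *Tnfrsf11a*, by 1.82 (SE 0.21, adjusted p = 2.33e-06). *Spi1* was higher by 1.42 (SE 0.25, adjusted p = 0.000155), *Mitf* by 0.96 (adjusted p = 0.0166), *Traf6* by 0.71 (adjusted p = 0.000402) and *Nfatc1* by 0.41 (adjusted p = 0.0171). The 2 that did not pass were *Fos*, with a difference of 1.18 (SE 0.49, adjusted p = 0.0529) that passed in 7 of 16 alternatives, filterByExpr among them (adjusted p = 0.0463), and *Src*, with -0.44 (SE 0.28, adjusted p = 0.207). All 6 bone libraries lay above all 6 MC libraries for *Csf1r*, *Tnfrsf11a*, *Il1r1*, *Tyrobp*, *Traf6* and *Spi1*, a separation that 12.7% of all genes had. In the 9 *Fgfr2+/+* libraries alone 4 members passed, *Csf1r* at 2.00, *Il1r1* at 2.16, *Tyrobp* at 1.39 and *Tnfrsf11a* at 0.86 (adjusted p = 0.0354), while *Spi1* (0.88, adjusted p = 0.102), *Traf6* (0.39, adjusted p = 0.226), *Mitf* (0.76, adjusted p = 0.301) and *Nfatc1* (-0.018, adjusted p = 0.954) did not. Leaving out 1 embryo ended the call of *Nfatc1* without *Fgfr2+/S252W* embryo 1 or *Fgfr2+/+* embryo 3 (adjusted p up to 0.0911) and of *Mitf* without *Fgfr2+/S252W* embryo 1 (adjusted p = 0.0571), whereas *Mitf* stood at 1.501 without *Fgfr2+/+* embryo 1. *Fos* passed without *Fgfr2+/S252W* embryo 3 (adjusted p = 0.00985) and *Src*, lower in bone, without *Fgfr2+/+* embryo 3 (adjusted p = 0.0472).

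Between bone and condylar cartilage 9 of the 10 members passed, all higher in bone, against 47% of all genes and 24.3% higher in bone. The differences were 7.06 for *Tyrobp* (SE 0.51, adjusted p = 6.3e-09), 6.07 for *Spi1* (SE 0.59, adjusted p = 2.17e-07), 5.10 for *Tnfrsf11a* (SE 0.35, adjusted p = 2.96e-09) and 4.36 for *Csf1r* (SE 0.23, adjusted p = 1.87e-10) on the log2 scale. The condylar side of these differences rested on few fragments. *Tyrobp* had 22 fragments in the 6 condylar libraries together against 4409 in bone, a ratio of 132.5 after scaling with a 95% counting interval of 87.4 to 212, and *Spi1* had 21 against 1828, a ratio of 57.6 (37.5 to 93.2). *Tnfrsf11a* had 97 condylar fragments and *Csf1r* 312. The intervals cover counting error only. *Il1r1* followed at 2.51 (adjusted p = 1.58e-06), *Fos* at 1.18 (adjusted p = 0.0333), *Traf6* at 0.73 (adjusted p = 0.000147), *Mitf* at 0.71 (adjusted p = 0.0318) and *Nfatc1* at 0.47 (adjusted p = 0.00546), and *Src* did not pass at 0.61 (adjusted p = 0.0879). All 6 bone libraries lay above all 6 condylar libraries for 7 members, the 6 named for MC and *Mitf*, against 18.1% of all genes. In the *Fgfr2+/+* libraries alone 6 members passed, and *Fos* (0.86, adjusted p = 0.207), *Mitf* (0.61, adjusted p = 0.317) and *Nfatc1* (0.084, adjusted p = 0.757) did not. In all 18 libraries the calls of *Fos* and *Mitf* also turned on single embryos: leaving out 1 embryo gave 0.83 to 1.84 for *Fos*, lost without *Fgfr2+/S252W* or *Fgfr2+/+* embryo 1 or 2 (adjusted p up to 0.195), and 0.56 to 0.86 for *Mitf*, lost without embryo 2 or 3 of either genotype (adjusted p up to 0.165). *Nfatc1* was lost without *Fgfr2+/S252W* embryo 2 (0.34, adjusted p = 0.0639), and *Fos* also by edgeR and DESeq2. In the *Fgfr2+/+* libraries *Csf1r* stood at 3.43, *Tnfrsf11a* at 4.34 and *Spi1* at 7.03.

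The cartilages differed from each other in 5 of the 10 members, all lower in condylar cartilage than in MC, against 57.7% of all genes tested and 29.1% lower. These were *Tyrobp*, with a difference of -5.06, *Spi1*, with -4.64, *Tnfrsf11a*, with -3.29, *Csf1r*, with -2.30, and *Src*, with -1.05 on the log2 scale (adjusted p = 0.00417 for *Src*). For the first 4 all 6 MC libraries lay above all 6 condylar libraries, which 14% of all genes showed. *Traf6*, *Mitf*, *Fos* and *Nfatc1*, which many cell types make, and *Il1r1* did not pass. In the *Fgfr2+/+* libraries alone *Src* did not pass either (-1.01, adjusted p = 0.0906), and *Csf1r* stood at -1.43 and *Spi1* at -6.15. With the other 5 embryos, *Src* did not pass without *Fgfr2+/+* embryo 2 (-0.68, adjusted p = 0.0508). *Il1r1*, at -0.26 with all embryos, passed without *Fgfr2+/+* embryo 1 (-0.74, limma adjusted p = 0.0473), the embryo of the MC library low in chondrocyte genes.

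The genotypes were then compared within each tissue, first in bone. With the spread estimated from all 18 libraries in 6 groups, condylar cartilage included, none of the 10 members passed an adjusted p of 0.05 in bone, where 10 of 11469 genes (0.0872%) did, and 4 members had an unadjusted p under 0.05 (*Csf1r*, *Tnfrsf11a*, *Il1r1* and *Nfatc1*; 8.13% of all genes). edgeR and DESeq2 called none of them either. All 10 differences were above 0. Their median was 0.46 over the 9 members kept by the FPKM filter and, in the set of 14881 genes that also holds *Il1r1*, 0.53 over all 10, against -0.00 over all genes in both. For 6 members all 3 *Fgfr2+/S252W* bone libraries lay above all 3 *Fgfr2+/+* libraries (*Csf1r*, *Tnfrsf11a*, *Il1r1*, *Src*, *Mitf* and *Nfatc1*), against 9.77% of genes. When the 6 bone libraries were filtered, normalized and fitted on their own (12322 genes, among them *Il1r1*), 3 members passed against 1.14% of genes: *Csf1r*, *Tnfrsf11a* and *Il1r1*, the receptors, rose. The study had already reported these 3 as upregulated in *Fgfr2+/S252W* bone, so the member counts are not independent of that report.

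**Figure D2:**
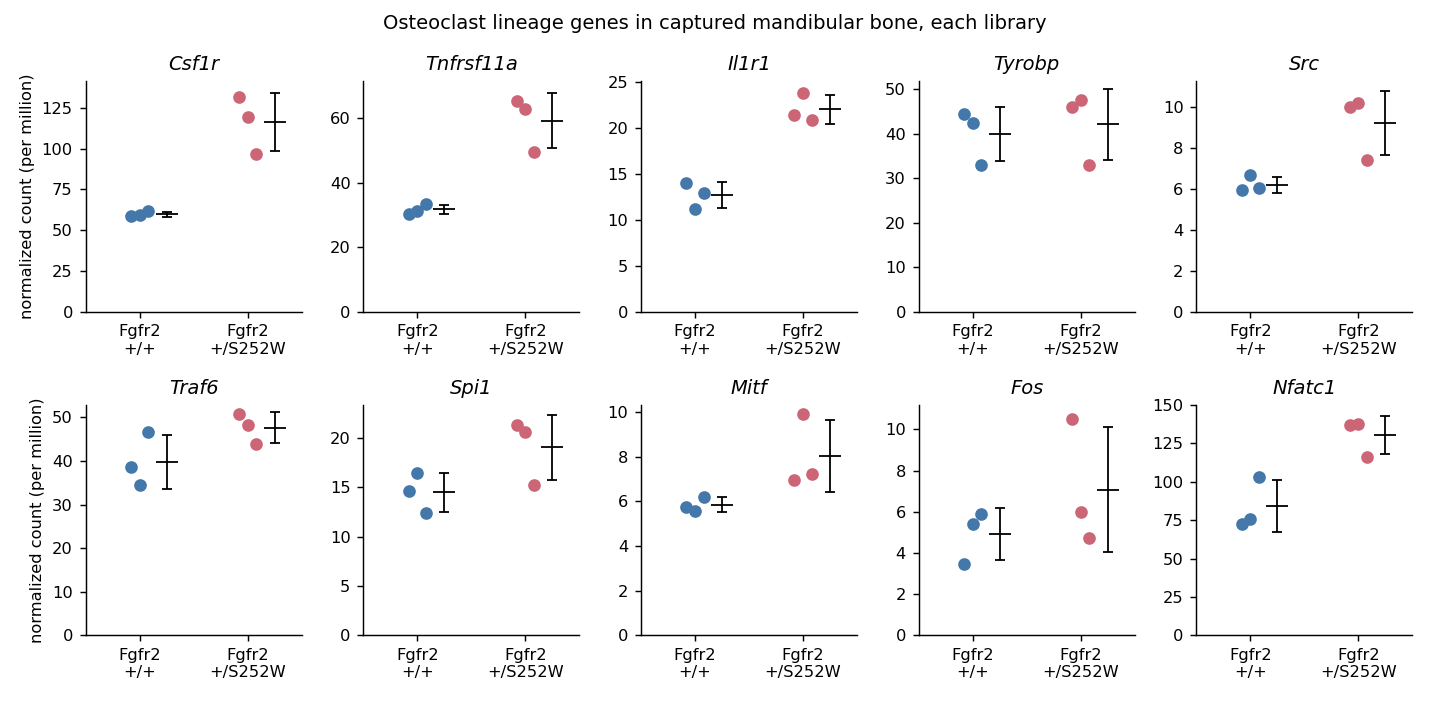
Normalized counts (CPM with TMM-corrected library sizes) of the 10 members in the 6 bone libraries, with points for libraries and lines for the mean ± SD of 3. Csf1r, Tnfrsf11a, Il1r1, Src, Mitf and Nfatc1 separate the genotypes, while Tyrobp, Traf6, Spi1 and Fos overlap.

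*Csf1r* read 58.7, 59.5 and 61.7 normalized counts in the *Fgfr2+/+* bone libraries (replicates 1, 2 and 3) and 132, 119.8 and 96.9 in the *Fgfr2+/S252W* libraries. The *Fgfr2+/+* libraries were nearly equal, and the lowest *Fgfr2+/S252W* library was well above them. The means were 59.9 ± 1.54 and 116 ± 17.8 (SD, n = 3), a 1.92-fold difference (log2 0.94, SE 0.20). The limma adjusted p was 0.0763 with all 18 libraries and 0.0106 with the bone libraries alone. *Tnfrsf11a*, the receptor for RANKL, read 30.4, 31.4 and 33.4 in *Fgfr2+/+* bone and 65.3, 63.0 and 49.5 in *Fgfr2+/S252W* bone. As with *Csf1r*, the *Fgfr2+/S252W* replicate 3 was the lowest of its group and the *Fgfr2+/+* replicate 3 the highest of its group. The means were 31.8 ± 1.52 and 59.3 ± 8.57, a 1.85-fold difference (log2 0.89, SE 0.20, limma adjusted p = 0.0984 with all libraries and 0.0165 with bone alone). *Il1r1* read 14.0, 11.2 and 12.9 against 21.4, 23.8 and 20.8, again without overlap, with means of 12.7 ± 1.39 and 22.0 ± 1.60. By total library sizes, as used in the filter, *Il1r1* exceeded 1 FPKM in only 7 of the 18 libraries. Its value therefore came from the wider set of 14881 genes (log2 0.81, SE 0.23, limma adjusted p = 0.241, and 0.0336 with bone alone). These calls turned on single libraries: without *Fgfr2+/+* replicate 3, the bone library with the low mitochondrial share, the bone libraries alone called 4 members and 11.4% of all genes, whereas leaving out another library left 0 to 2 members.

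*Tyrobp*, the adaptor that carries the ITAM signal, did not follow the receptors. It read 44.4, 42.3 and 33.0 normalized counts in *Fgfr2+/+* bone and 45.9, 47.5 and 32.9 in *Fgfr2+/S252W* bone, and the groups overlapped over nearly their whole range. The means were 39.9 ± 6.10 and 42.1 ± 8.01, and the difference was 0.08 on the log2 scale with a 95% interval of -0.35 to 0.51 (limma adjusted p = 0.979). *Src* read 5.95, 6.68 and 6.04 against 10.03, 10.2 and 7.44, without overlap but at a low level, and its difference of 0.56 (SE 0.31) had an adjusted p of 0.684 by limma. *Traf6*, the adaptor of RANK, read 38.5, 34.5 and 46.6 against 50.8, 48.3 and 43.9. The *Fgfr2+/+* replicate 3 lay inside the range of the *Fgfr2+/S252W* libraries. Its difference was 0.26 (SE 0.15, limma adjusted p = 0.704).

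Of the transcription factors, *Nfatc1*, the master regulator of osteoclast differentiation, had the largest difference. It read 72.6, 76.0 and 103 normalized counts in *Fgfr2+/+* bone and 137, 138 and 116 in *Fgfr2+/S252W* bone, so the gap between the groups was set by *Fgfr2+/+* replicate 3 on one side and *Fgfr2+/S252W* replicate 3 on the other. The means were 84.0 ± 16.8 and 130.3 ± 12.2, a 1.56-fold difference (log2 0.64, SE 0.18, limma adjusted p = 0.265, and 0.0712 with bone alone). *Spi1*, which marks the myeloid lineage as a whole, read 14.6, 16.4 and 12.4 against 21.3, 20.6 and 15.3. The *Fgfr2+/S252W* replicate 3 fell within the *Fgfr2+/+* range, and the difference was 0.40 (SE 0.23, limma adjusted p = 0.711). *Mitf* read 5.75, 5.58 and 6.21 against 6.96, 9.88 and 7.23, without overlap, with a difference of 0.44 (SE 0.28, adjusted p = 0.756). *Fos* read 3.48, 5.43 and 5.87 against 10.5, 5.98 and 4.71, where 1 high library set the mean of the *Fgfr2+/S252W* group, and its difference of 0.46 (SE 0.45) had a limma adjusted p of 0.876 and was 0.14 without that library.

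In MC none of the 10 members passed by limma, nor did any of the 11469 genes tested (0%). edgeR called 90 genes (0.785%) and DESeq2 423 (3.69%), no member among them, and by limma 3 members had an unadjusted p under 0.05 (*Csf1r*, *Tnfrsf11a* and *Tyrobp*; 15.4% of all genes). The values of the lineage genes went in opposite directions. *Csf1r* read 14.3, 11.3 and 19.7 normalized counts in *Fgfr2+/+* MC and 35.0, 33.3 and 15.6 in *Fgfr2+/S252W* MC. Of the *Fgfr2+/S252W* libraries 2 lay above every *Fgfr2+/+* library and the third among them, and the difference was 0.85 (SE 0.34, limma adjusted p = 0.246). *Tnfrsf11a* read 19.2, 10.9 and 21.9 in *Fgfr2+/+* MC and 7.75, 11.9 and 7.18 in *Fgfr2+/S252W* MC. The groups overlapped in 1 library each, and the difference was -0.998 (SE 0.37, adjusted p = 0.227). *Tyrobp* read 15.5, 9.18 and 20.1 against 8.28, 7.88 and 4.55. All 3 *Fgfr2+/S252W* libraries were the lower, though by a small margin from *Fgfr2+/+* replicate 2, and the difference was -1.09 (SE 0.42, adjusted p = 0.236).

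*Traf6* also lay lower in all 3 *Fgfr2+/S252W* MC libraries, at 19.9, 26.8 and 24.0 against 30.7, 29.8 and 30.7, with a difference of -0.40 (SE 0.21, limma adjusted p = 0.364). A separation in this direction, shown by *Tyrobp* and *Traf6*, was found in 5.74% of all genes in MC. *Spi1* read 10.96, 4.02 and 6.56 against 3.21, 6.53 and 4.73 with overlap, at a difference of -0.71 (SE 0.47, adjusted p = 0.478). The high *Spi1* library was *Fgfr2+/+* replicate 1, the one low in chondrocyte genes, and without it the difference was -0.20, against -1.01 without *Fgfr2+/+* replicate 2. *Nfatc1* read 75.5, 82.5 and 96.4 against 65.9, 83.1 and 71.8, also with overlap, at -0.20 (SE 0.22, adjusted p = 0.699). *Src* spanned 4.12 to 20.1, *Il1r1* 1.39 to 6.01, *Mitf* 1.34 to 6.23 and *Fos* 1.34 to 5.55 normalized counts over the 6 MC libraries, with the genotypes overlapping. MC libraries held 7 to 67 fragments of *Mitf* and 10 to 29 of *Fos*, so that differences in these genes were poorly resolved there.

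In condylar cartilage none of the 10 members and none of all genes (0%) passed by limma, while edgeR called 0 genes and DESeq2 3 (0.0262%), no member among them, and 1 member had an unadjusted p under 0.05 (*Spi1*; 3.06% of all genes). *Csf1r* read 4.73, 4.82 and 7.31 in *Fgfr2+/+* and 1.67, 3.44 and 5.77 in *Fgfr2+/S252W* condylar cartilage, with 1 library of the latter inside the range of the former and a difference of -0.89 (SE 0.47, limma adjusted p = 0.998). Leaving out 1 library moved it between -1.23 and -0.34, the latter without *Fgfr2+/S252W* replicate 1. *Tnfrsf11a* read 1.20, 1.25 and 2.26 against 0.603, 0.430 and 3.46, with the highest and the lowest library in the same group, and a difference of -0.73 (SE 0.66) that ran from -1.46 to -0.27 when 1 library was left out. *Spi1* was counted 2, 0 and 1 times in the *Fgfr2+/+* libraries and 3, 8 and 7 times in the *Fgfr2+/S252W* libraries. The groups did not overlap in normalized counts, as for 4.19% of genes, and the ratio of 18 to 3 fragments after scaling was 6.36 with a counting interval of 1.86 to 33.7. The fitted difference was 2.32 (SE 0.99, adjusted p = 0.998), or 1.67 to 3.01 with 1 library left out. *Tyrobp* stayed at 1 to 9 fragments per library in both genotypes.

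**Figure D3:**
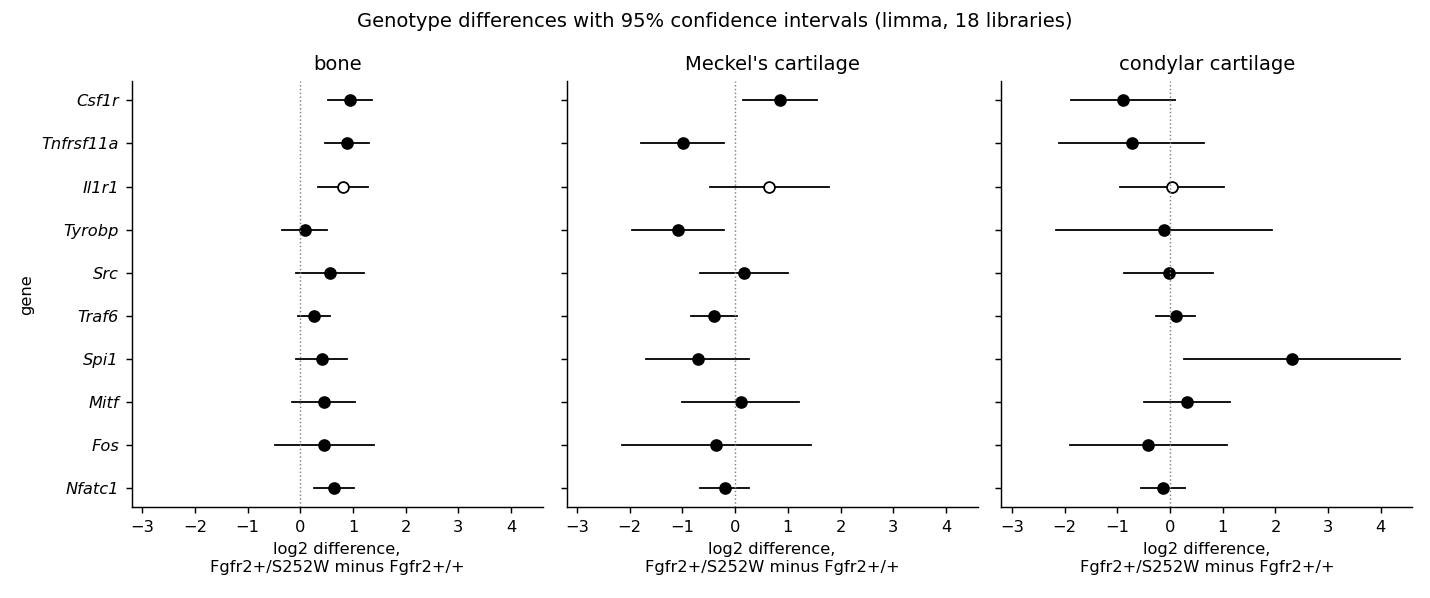
Log2 difference of Fgfr2+/S252W minus Fgfr2+/+ for each member in bone, MC and condylar cartilage, with 95% intervals from limma. The open circle marks Il1r1, taken from the wider set of genes. In bone all 10 lie above 0, in MC 6 lie below 0, and Spi1 and Tyrobp in condylar cartilage have the widest intervals.

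Whether the genotype difference itself differed between tissues was tested within embryos. None of the 10 members passed for bone against MC, where 0.0349% of all genes did by limma, 0.00872% by edgeR and 0.593% by DESeq2, with no member in any, and 4 had an unadjusted p under 0.05 against 9.12% of all genes. Largest among these 4 was *Tnfrsf11a*, at 1.93 on the log2 scale (SE 0.46, unadjusted p = 0.00057, adjusted p = 0.235), whose values were higher with the mutation in bone and lower in MC. *Tyrobp* followed at 1.24 (adjusted p = 0.481), *Nfatc1* at 0.86 (adjusted p = 0.39) and *Traf6* at 0.64 (adjusted p = 0.515), while *Spi1* at 1.09 (SE 0.53) and *Fos* at 0.96 (SE 1.00) had larger values than the last 2 with wider error. *Csf1r*, which was higher with the mutation in most libraries of both tissues, had an interaction of 0.13 (SE 0.39, adjusted p = 0.945). For bone against condylar cartilage none of the members and none of all genes (0%) passed by limma, while edgeR called 0 genes and DESeq2 2 (0.0174%), no member among them, and 2 members had an unadjusted p under 0.05 against 2.86% of genes. They were *Csf1r*, at 1.88 (SE 0.50, adjusted p = 1), and *Nfatc1*, at 0.78 (adjusted p = 1), and among the others *Tnfrsf11a* stood at 1.53 (SE 0.74) and *Spi1*, the only member below 0, at -1.93 (SE 1.02, adjusted p = 1). Leaving out 1 embryo moved *Tnfrsf11a* between 0.99 and 2.53.

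A ratio of 2 genes within a library does not depend on library scaling. In bone 2.87, 2.52 and 2.94 *Csf1r* fragments were counted per *Tyrobp* fragment in the *Fgfr2+/S252W* libraries and 1.32, 1.41 and 1.87 in the *Fgfr2+/+* libraries. In MC the ratios were 4.23, 4.23 and 3.42 against 0.922, 1.23 and 0.981. The groups did not overlap in either tissue, with means of 2.78 ± 0.227 against 1.53 ± 0.296 in bone and 3.96 ± 0.464 against 1.04 ± 0.163 in MC (SD, n = 3). The exact two-sided permutation test gave p = 0.1 in each, the smallest value that 3 against 3 libraries allow, so no ratio could pass 0.05. *Tnfrsf11a* and *Csf1r* kept nearly 1 ratio in bone, 0.510 ± 0.016 in *Fgfr2+/S252W* and 0.530 ± 0.012 in *Fgfr2+/+* libraries (exact permutation p = 0.2, n = 3). In MC the same ratio was 0.347 ± 0.120 against 1.14 ± 0.190 without overlap (exact permutation p = 0.1, n = 3). *Tnfrsf11a* and *Tyrobp* showed the reverse arrangement: 1.42 ± 0.088 against 0.814 ± 0.176 in bone (exact permutation p = 0.1, n = 3) and 1.34 ± 0.354 against 1.17 ± 0.074 in MC (exact permutation p = 0.5, n = 3). *Csf1r* per *Spi1* in bone was 6.12 ± 0.280 against 4.20 ± 0.689 (exact permutation p = 0.1, n = 3). In MC it was 6.44 ± 3.98 against 2.37 ± 0.928 (exact permutation p = 0.1, n = 3), with the closest libraries at 3.30 and 3.00. The ratios of *Csf1r* to the adaptor and to *Spi1* thus separated the libraries of the genotypes in both tissues. The ratio of the receptors to each other separated them in MC. In all 13 ratios were tested over the 3 tissues, chosen with the values known, and the smallest p adjusted over them was 0.217.

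**Figure D4:**
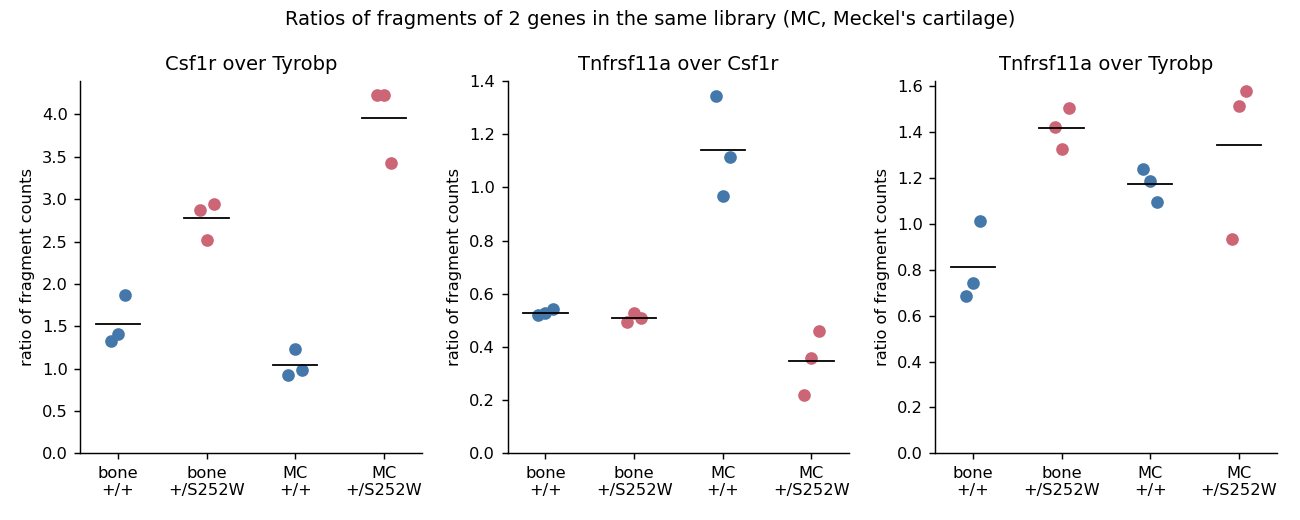
Fragments of Csf1r per Tyrobp, of Tnfrsf11a per Csf1r and of Tnfrsf11a per Tyrobp in each bone and MC library, with the mean of each group as a line. Csf1r per Tyrobp is higher in all Fgfr2+/S252W libraries of both tissues, and Tnfrsf11a per Csf1r separates the genotypes in MC, where it is lower, at 0.347 against 1.14.

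The genes whose levels followed *Csf1r* most closely over the 18 libraries were *Fam171a1* and *Cd93* (Pearson r = 0.960 each), *Cd68* (0.958), *Slc37a2* (0.957) and *Sparcl1* (0.956), among 11468 genes. *Cd68* is a lysosomal protein of macrophages and osteoclasts, and *Cd93* is best known from endothelium. *Tnfrsf11a* ranked 14th at 0.941, *Tyrobp* 28th at 0.928 and *Spi1* 92nd at 0.886, whereas *Src* stood at 0.382. The closest to *Tnfrsf11a* were *Tyrobp* (0.977), *Adgre5* (0.974), *Csf2rb* (0.973), *Gpr137b* (0.968) and *Mmp9* (0.967), of which *Mmp9* is a matrix protease of osteoclasts. The 18 points share tissue and genotype, and no correlation within a tissue was computed.

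The ligands of the receptors and the wider pathway were read from the fit on 14881 genes, in which 0.141% passed in bone (0.0941% higher) and 8.23% had an unadjusted p under 0.05. Of 8 ligands and decoys 4 could be tested and none passed in bone at an adjusted p, 1 at an unadjusted p. *Csf1*, the ligand of CSF1R, averaged 68.5 ± 11.01 and 98.6 ± 14.3 normalized counts without overlap (log2 0.53, SE 0.22, limma adjusted p = 0.517). *Tnfsf11*, which encodes RANKL, averaged 4.56 ± 1.21 and 6.28 ± 1.60, and its decoy receptor *Tnfrsf11b* 7.08 ± 2.19 and 7.85 ± 1.98, both with overlap. Of 9 tested ITAM partners 1 rose: *Oscar*, the collagen-binding receptor that signals through the ITAM adaptor FCER1G, went from 12.4 ± 1.72 to 29.3 ± 4.37 (log2 1.24, SE 0.20, limma adjusted p = 0.0199). None of 23 proteins that relay signals of RANK, CSF1R and IL1R1 passed in bone, at an adjusted or an unadjusted p, and none of 21 other osteoclast transcription factors, 4 of them at an unadjusted p. The relay list had a median difference of 0.09 and the transcription factor list of 0.16, against -0.00 over all genes.

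The genes that carry out resorption had higher values in *Fgfr2+/S252W* bone, as the receptors did. Of 13 osteoclast effector genes all 13 had every *Fgfr2+/S252W* bone library above every *Fgfr2+/+* library, against 9.77% of all genes, with a median difference of 0.82. The study had already reported genes of this list, *Acp5*, *Calcr* and *Ctsk* among them, as upregulated in *Fgfr2+/S252W* bone. The counts for the list are therefore not independent of that report. One passed in the fit of 18 libraries, *Calcr*, the calcitonin receptor, which rose from 6.89 ± 0.483 to 18.7 ± 4.52 (log2 1.41, SE 0.24, limma adjusted p = 0.0199), and 10 of 13 passed with the bone libraries alone, against 1.14% of all genes there. *Mmp9* averaged 315 ± 91.2 and 717 ± 145 (log2 1.22, adjusted p = 0.0834), *Ctsk*, the collagen-degrading cathepsin K, 419 ± 46.6 and 695 ± 99.7 (0.74, adjusted p = 0.0834), and *Ocstamp*, which acts in cell fusion, 22.7 ± 6.32 and 45.4 ± 6.55 (1.05, adjusted p = 0.114). In MC 9 of the 13 had a difference below 0, with a median of -1.07, and none passed, while 5 had an unadjusted p under 0.05, against 14.8% of all genes. *Mmp9* was lower in all 3 *Fgfr2+/S252W* MC libraries (71.6 ± 39.6 against 27.7 ± 3.94, log2 -1.28, adjusted p = 0.214), as were *Acp5* and *Dcstamp* (5.74% of all genes), which were picked out after their values were seen.

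Macrophage genes, which bear on *Csf1r*, *Spi1* and *Tyrobp* because macrophages make all of them, mostly had lower values in *Fgfr2+/S252W* bone and higher values in *Fgfr2+/S252W* MC, though their summed level was higher in both. Of 14 such genes 12 could be tested, and their median difference was -1.40 in bone and 1.66 in MC. In bone 8 of them had every *Fgfr2+/S252W* library below every *Fgfr2+/+* library (10.3% of all genes) and 2 above (9.77%). *Mrc1*, a scavenger receptor of macrophages, averaged 6.25 ± 2.48 in *Fgfr2+/+* and 2.27 ± 0.390 in *Fgfr2+/S252W* bone, *C1qb*, a complement subunit, 4.77 ± 0.747 and 0.969 ± 0.086, and *Adgre1*, the F4/80 antigen, 2.93 ± 0.384 and 0.733 ± 0.570. None of these 3 passed with 18 libraries, and *C1qb* and *Adgre1* fell with the bone libraries alone (limma adjusted p = 0.010 and 0.046). *Cd68*, which osteoclasts also make, rose from 60.1 ± 16.8 to 115 ± 19.7 (log2 0.98, SE 0.20, limma adjusted p = 0.049), but did not pass among the 11469 genes of the FPKM filter (log2 0.97, adjusted p = 0.0754).

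In MC all 12 macrophage differences were above 0 and none passed, with 6 at an unadjusted p under 0.05, against 14.8% of all genes. *Mrc1* averaged 7.71 ± 0.788 and 18.01 ± 7.97, *C1qb* 9.27 ± 7.91 and 22.3 ± 3.88, and *Adgre1* 2.16 ± 2.72 and 9.32 ± 2.36 in *Fgfr2+/+* and *Fgfr2+/S252W* MC, each without overlap (6.9% of all genes). The summed level of the 14 genes was 46.4 to 67.1 normalized counts in the *Fgfr2+/+* MC libraries and 87.2 to 135 in the *Fgfr2+/S252W* MC libraries, of which 1 gene was at 0 in each group. In bone it was 87.1 to 106 and 124 to 157, with *Cd68* as the largest part, and in condylar cartilage 2.88 to 10.02. None of the 12 passed the test of the interaction between bone and MC, and the smallest adjusted p was 0.126. *Csf1r* in MC thus stood beside higher macrophage values and lower effector values in the *Fgfr2+/S252W* libraries, and in bone beside lower values of most macrophage genes and higher effector values, and the part of either in the *Csf1r* result was not tested.

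**Figure D5:**
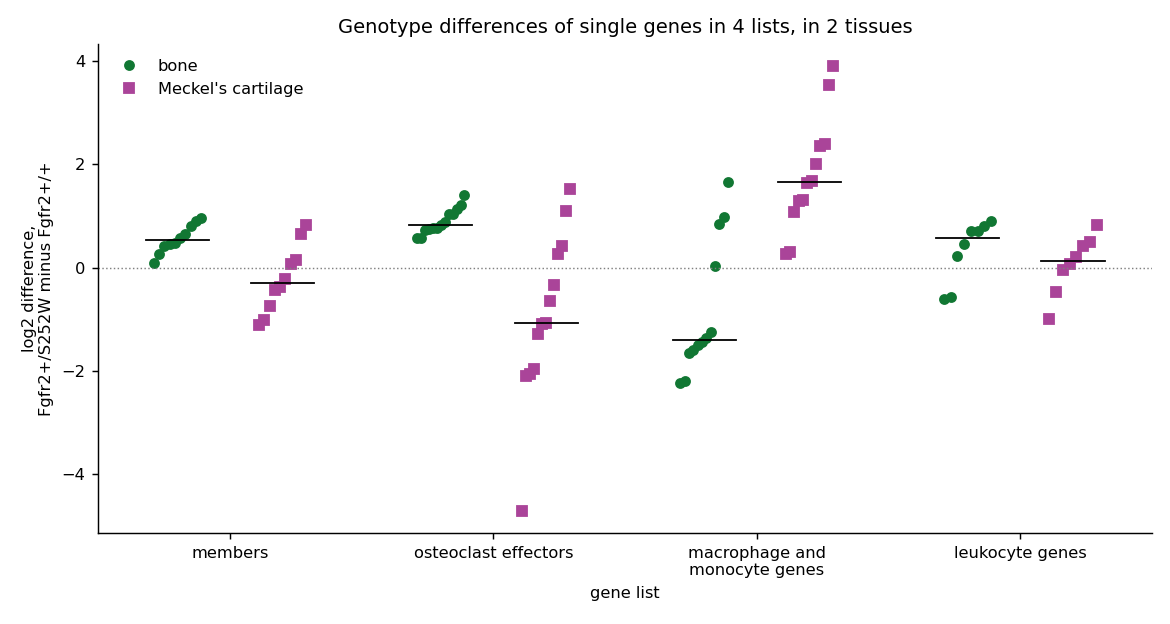
Log2 difference of Fgfr2+/S252W minus Fgfr2+/+ in bone and in MC for the 10 members, 13 osteoclast effector genes, 12 macrophage genes and 8 leukocyte genes, from limma on the wider set of 14881 genes, with the median of each list as a line. Effector genes lie above 0 in bone (median 0.82) and mostly below 0 in MC (median -1.07), macrophage genes the other way (medians -1.40 and 1.66).

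Other cell types that make single members were checked by their markers in the same bone libraries. Of 8 general leukocyte genes 6 had higher and 2 lower values in *Fgfr2+/S252W* bone, 4 of them above (9.77% of all genes) and 2 below (10.3%) every *Fgfr2+/+* library. None passed with 18 libraries, 4 had an unadjusted p under 0.05 (8.23% of all genes), all 4 higher, and 2 rose with the bone libraries alone (1.14%), *Laptm5* and *Rac2*. The 2 with lower values were *Coro1a*, at 2.79 ± 0.173 and 1.87 ± 0.162, and *Cd53*, at 9.57 ± 3.35 and 5.99 ± 0.525. *Laptm5*, a lysosomal protein of blood cells, averaged 40.3 ± 9.44 and 73.2 ± 2.98 (log2 0.90, SE 0.20, limma adjusted p = 0.0873). Melanocytes, which depend on MITF, were near absent: the 6 melanocyte genes summed to 0.847 normalized counts or less in each bone library, with *Tyr* at 0 in all of them. The 7 mast cell genes summed to 6.29 to 9.96 in *Fgfr2+/S252W* and 8.97 to 15.4 in *Fgfr2+/+* bone, most of it *Kit*, and the 8 neutrophil genes to 5.78 to 11.9 and 4.11 to 16.0. Of the 12 immediate early genes, which share with *Fos* a quick response to handling of tissue, none passed with 18 libraries or, except for *Egr1* (33.3 ± 11.6 and 70.1 ± 12.4, limma adjusted p = 0.0455), with the bone libraries alone.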

How the data were processed

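RNA of the 18 laser-captured samples was amplified (NuGEN Ovation) and sequenced in paired ends without strand. Per the labels and file headers, the authors aligned the fragments with STAR to mm10 and counted them per gene with featureCounts 1.5.0-p1 (GRCm38, Ensembl release 75). The deposited values are raw counts, 1 file per sample. Counts were normalized with TMM (edgeR 4.0.16) and fitted with voom and eBayes in limma 3.58.1 (R 4.3.3), with a minimum of 1 FPKM that 50% or more of the libraries had to exceed (11469 genes) and Benjamini-Hochberg adjusted p under 0.05. The study's methods state 1 design over all sample groups, and taking the 6 groups of these 18 libraries for it was chosen here. The study describes RNA of bone and MC only, so the fit used here is not a repeat of its own. Its fit called *Csf1r*, *Tnfrsf11a* and *Il1r1* upregulated in *Fgfr2+/S252W* bone, where the fit used here called no member. It also saw more *Csf1r*-positive cells there by in situ hybridization. FPKM was computed from the counts and the exonic lengths in the files. The filter used total library sizes, whereas the levels shown used library sizes with the TMM correction. *Il1r1*, which that filter drops, and the pathway lists were read from the same fit after filterByExpr (14881 genes). Tissue differences and interactions had the embryo as a block, on the reading that a replicate number marks 1 embryo in all 3 tissues. That reading comes from the labels: tissues of 1 embryo did not deviate together (mean correlation 0.00012, -0.0895 to 0.107). The 6 libraries of a tissue alone, edgeR, DESeq2 1.42.0, other filters, scalings, weights and blocks and leaving out each library were tried as alternatives. The scripts were tested on simulated data. Same-numbered libraries of the 2 genotypes had correlated deviations in some pairs and not in others (-0.105 to 0.238 in bone, -0.175 to -0.0486 in MC, 0.0504 to 0.309 in condylar cartilage). As not every pair exceeded 0.1 in any tissue, the numbers were not taken to pair genotypes. Ratios were compared with exact two-sided permutation tests, and counting intervals are exact at 95%.

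All 10 members are named. From each pathway or marker list at most 4 genes are named, those that passed in bone and otherwise those with the smallest p there (*Acp5*, *Dcstamp*, *Coro1a* and *Cd53* are named beyond this, chosen after their values were seen), and for likeness the 5 genes with the highest correlation. The members and lists were chosen with earlier results of these data known. The study had reported some of these genes as upregulated in *Fgfr2+/S252W* bone, *Oscar*, *Acp5*, *Calcr*, *Ctsk* and the receptors *Csf1r*, *Tnfrsf11a* and *Il1r1* among them. The replicates are separate embryos. Whether amplification duplicates were removed is not given in the sources used here, and depth limits members with few fragments.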

Additional observations from a re-analysis of the deposited data

How the results depend on the processing

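The number of members called between genotypes in bone, 0 with 18 libraries, depended on the genes and libraries fitted and on the weights. It was 1 without a filter (0.205% of genes called), 4 with sample quality weights (5.14%), 3 in the 6 bone libraries alone (1.14%), and 0 to 4 when single libraries were left out of those 6, a choice made after seeing the data (4 without *Fgfr2+/+* replicate 3, 2 without *Fgfr2+/S252W* replicate 3, 1 without *Fgfr2+/+* replicate 2). A replicate block gave 4 in the 6 bone libraries (4.5%) and 0 in all 18 (0.061%), and not every pair it assumes deviated together. The counts in MC, in condylar cartilage and for both interactions were 0 in every alternative. Between bone and MC 8 members passed, 9 with no replicate block, with the embryo as a random block, by DESeq2, with filterByExpr, without a filter and without *Gm42418* and mitochondrial genes, 6 with sample quality weights and 4 in the 9 *Fgfr2+/+* libraries alone, where *Nfatc1* turned to -0.018. The cause was not tested. The other tissue counts ranged over 6 to 10 for bone against condylar cartilage and 4 to 6 between the cartilages. *Csf1r* in bone stayed between 0.84 and 1.07 with adjusted p from 0.000727 to 0.745, and *Tnfrsf11a* between 0.80 and 1.01. Leaving out 1 library moved *Tyrobp* in bone between -0.057 and 0.24 with 18 libraries and, with bone alone, to -0.074, -0.028 and -0.0050 without *Fgfr2+/+* replicate 3 and *Fgfr2+/S252W* replicates 2 and 1, and leaving out 1 embryo turned the *Csf1r* interaction of bone and MC between -0.11 and 0.28. Of 994 alternative values of 55 member differences in the text, 933 kept their direction and side of the threshold, 25 lost and 28 gained a call and 8 reversed. Of 460 values of the other 25, 79 reversed. Depth limits *Tyrobp* and *Spi1* in condylar cartilage and *Fos* and *Mitf* in MC.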

Other observations

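Outside the osteoclast lineage, red cell and muscle genes had lower mean values in *Fgfr2+/S252W* bone. All 6 erythroid genes had every *Fgfr2+/S252W* bone library below every *Fgfr2+/+* library, against 10.3% of all genes, with *Hbb-bt*, a beta globin, at 265 ± 44.2 in *Fgfr2+/+* and 87.8 ± 23.1 normalized counts in *Fgfr2+/S252W* bone (mean ± SD, n = 3; log2 -1.61, SE 0.36, limma adjusted p = 0.0858 with 18 libraries and 0.00311 with the bone libraries alone). The 6 skeletal muscle genes summed to 25.4, 218 and 222 normalized counts in the 3 *Fgfr2+/+* bone libraries and to 1.28, 8.07 and 26.8 in the *Fgfr2+/S252W* libraries, so that the amount of muscle RNA also varied within a genotype. Of 10 genes of osteoblasts, the lineage that makes RANKL and CSF1, 4 had every *Fgfr2+/S252W* bone library above every *Fgfr2+/+* library (9.77% of all genes) and 1 below (10.3%). *Bglap2*, an osteocalcin gene with near-identical copies among which fragments may be split, averaged 9.36 ± 3.19 and 18.2 ± 3.48 (log2 1.00, SE 0.23, limma adjusted p = 0.0981), and *Dmp1*, a matrix protein of osteocytes, 141 ± 51.7 and 305 ± 94.1 (log2 1.15, adjusted p = 0.207). The 6 endothelial genes, of interest beside the likeness of *Cd93* to *Csf1r*, summed to 192 to 261 in *Fgfr2+/+* and 209 to 217 in *Fgfr2+/S252W* bone, with the genotypes overlapping.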
